A study of Mus musculus with 16 samples.

Results

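The genes described here encode the motor proteins that walk along microtubules: kinesins, kinesin light chains and the subunits of the cytoplasmic dyneins. They were chosen by gene symbol alone (symbols of the forms Kif, Kifc, Klc, Dync1 and Dync2 followed by a member's number or letters), which gave 52 of the 24539 genes in the count table. By role, 26 were placed with neuronal transport, of which 17 are transport kinesins, 4 kinesin light chains and 5 subunits of cytoplasmic dynein 1. A further 14 were mitotic kinesins, 8 were motors of cilia, and 4 were other kinesins. Of the 52 genes, 50 had at least 1 count, 37 had a count in each of the 16 libraries, and 45 passed the filter on low counts and were tested.

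RNA was sequenced from mouse embryos at E14.5 whose GABAergic cells carry GFP from 1 copy of the GAD67-GFP allele. GFP-positive cells of the cortical plate were collected by laser capture from fixed tissue, as a pool of about 100 cells in each of 10 sections of 10 µm. CD1 dams received alpha-cypermethrin, a pyrethroid insecticide that acts on neuronal sodium channels, at 10 mg/kg in corn oil, or corn oil alone as the vehicle, by gavage from gestational day 11 to 14. Stressed dams were also restrained under bright light for 45 min, 3 times a day on days 12 and 13 and once on day 14. The 4 groups were therefore vehicle nonstressed, cypermethrin nonstressed, vehicle stressed and cypermethrin stressed, each with 4 embryos labelled male, 1 per litter. All groups carry the GFP allele and all dams were gavaged, so there is no untouched control, and the GFP allele marks GABAergic cells by GAD67, not motor genes.

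Kinesins of the Kif1, Kif3, Kif5, Kif13 and Kif21 families mostly carry cargo such as vesicle precursors, mitochondria and membrane proteins outward along axons and dendrites. Cytoplasmic dynein 1 carries cargo back to the cell body and, in migrating neurons, helps move the nucleus and centrosome toward the leading process. Mitotic kinesins build the spindle, move chromosomes and complete cell division, and most are made mainly by cells that divide. The GABAergic interneurons of the cortex are born in the ventral forebrain and migrate tangentially into the cortical plate, so their motor genes bear on both migration and the earlier exit from the cell cycle.

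The promoters of mitotic kinesins and of transport motors differ in a short motif, so examples of both are shown. In the promoters of many cell cycle genes the element TTTGAA (on either strand, so also TTCAAA) lies close to the start of transcription, often with a CCAAT box (also read as ATTGG) upstream. In each line below, taken from RefSeq's promoters on build GRCm38.p6, 80 bases before the annotated start are followed by 30 bases from the start on, and TTTGAA or CCAAT, on either strand, is in capitals. The first 6 are mitotic kinesins: Kif11 (chr19:37376302-37376411, plus strand), Kif15 (chr9:122951001-122951110, plus), Kif18b (chr11:102925095-102925204, minus), Kif20b (chr19:34922278-34922387, plus), Kif22 (chr7:127042391-127042500, minus) and Kif23 (chr9:61946770-61946879, minus).
Kif11: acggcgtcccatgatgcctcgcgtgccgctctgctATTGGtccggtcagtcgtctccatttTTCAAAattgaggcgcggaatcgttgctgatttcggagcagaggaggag
Kif15: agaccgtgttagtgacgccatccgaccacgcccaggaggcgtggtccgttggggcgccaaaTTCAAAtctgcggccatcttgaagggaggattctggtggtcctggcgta
Kif18b: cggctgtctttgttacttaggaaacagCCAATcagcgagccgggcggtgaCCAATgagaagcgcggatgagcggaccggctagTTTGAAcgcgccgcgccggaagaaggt
Kif20b: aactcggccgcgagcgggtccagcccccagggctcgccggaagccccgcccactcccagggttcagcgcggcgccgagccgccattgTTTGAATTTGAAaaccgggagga
Kif22: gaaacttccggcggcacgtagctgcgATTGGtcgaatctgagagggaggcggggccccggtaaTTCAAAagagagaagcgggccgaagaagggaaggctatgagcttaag
Kif23: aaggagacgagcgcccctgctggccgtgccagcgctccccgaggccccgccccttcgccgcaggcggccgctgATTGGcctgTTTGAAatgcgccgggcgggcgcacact
The other 3 are transport motors that were among the most abundant per length: Kif5c (chr2:49619206-49619315, plus), Kif3a (chr11:53567289-53567398, plus) and Dync1h1 (chr12:110601315-110601424, plus).
Kif5c: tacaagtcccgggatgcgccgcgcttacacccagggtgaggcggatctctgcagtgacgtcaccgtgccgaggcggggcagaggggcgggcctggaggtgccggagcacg
Kif3a: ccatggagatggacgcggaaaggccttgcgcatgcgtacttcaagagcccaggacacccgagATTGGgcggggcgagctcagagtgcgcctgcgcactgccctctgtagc
Dync1h1: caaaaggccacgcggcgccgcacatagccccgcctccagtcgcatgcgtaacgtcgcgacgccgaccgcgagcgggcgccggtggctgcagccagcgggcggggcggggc
The 6 mitotic examples all come from the 9 mitotic windows with TTTGAA within 30 bases of the start, so each stretch holds it by choice. None of the 3 transport stretches holds it. Kif20b carries it as a direct repeat, and Kif18b has a pair of CCAAT boxes upstream of it. Kif3a has an ATTGG but no TTTGAA.

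Over the whole 300-base windows of the table (250 bases before the start and 50 from it on), 41 of the 52 motor genes were matched, with 46 windows. TTTGAA lay in 11 of 13 mitotic kinesin windows (84.6%), in 1 of 21 transport windows (4.76%) and in 17.9% of all 32851 windows. Within 30 bases of the start, the shares were 9 of 13 (69.2%, Kif4, Kifc1 and Kifc5b beside the 6 shown), 0 of 21 and 3.14%. The transport exception was a further Kif1a window, where the motif lies farther upstream. CCAAT was found in 9 mitotic windows (69.2%), 6 transport windows (28.6%) and 37.4% of all windows, and both motifs in 8 (61.5%), 0 and 6.95%. Among 19 genes of mitosis that are not kinesins, with 20 windows, TTTGAA was in 14 (70%) and near the start in 10 (50%). Kif18a and Kif2b held no TTTGAA in their windows. The median GC content was 60.7% in mitotic, 67% in transport and 52.7% in all windows. The motif was chosen with the classes known, and a match of letters is a description of the sequence, not evidence of binding.

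The libraries held 2291283 to 4324129 counts (median 3695782.5), and motor genes took 0.661% to 0.786% of each. The descriptions give 7 libraries a first code and 9 a second, and no source used here explains it. Of the cypermethrin nonstressed libraries only replicate 1 bears the first code. Values within the first code that involve this group therefore rest on a single embryo there. The label calls the cells neural progenitors. Interneuron markers were present (mean CPM, counts scaled to a common library size, over 16 libraries: Gad2 270, Gad1 69.7, Lhx6 280), as were neuron markers (Dcx 3904, Map2 3728), and the 10 listed radial glia and progenitor markers summed to 789 ± 97.1 CPM (SD, n = 16, 629 to 1027). Most of that sum was Nes and Vim (range 259 to 697 and 108 to 409 CPM), which other cells also make, while the regulators Sox2, Pax6, Hes1, Eomes and Hes5 had means of 21.6, 8.40, 4.01, 1.71 and 0.142 CPM. Genes of other cells were captured too, such as Neurod6 (1321 CPM, glutamatergic neurons) and Col3a1 (464 CPM, meninges and pericytes), so motor levels are those of a mixture. The 10 listed glutamatergic neuron markers summed to 5448 ± 838 CPM (SD, n = 16, 4481 to 7539). The 14 listed interneuron markers summed to less in every library, 2099 ± 329 CPM (1656 to 2723). These lists hold different genes, so their sums do not give shares of cells, and motor levels cannot be assigned to interneurons alone. In the library labelled vehicle stressed replicate 1, sex-linked genes went against the label of male embryos (Xist 4514 CPM, and at most 8.12 in the other 15). It was kept, and results that rest on it are also given without it.

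Motor genes of neuronal transport dominated. Levels of different genes are compared as TPM, a share of transcripts, computed by dividing counts by the length of annotated exons and giving every library the same total. The longest transcript was tried as length only for the transport and mitotic sums. For single genes, the order of those close in TPM can change with the length used. Neuronal transport genes summed to 3713 ± 291 TPM (SD, n = 16) and mitotic kinesins to 120 ± 45.4 TPM, so that transport was 33.7 ± 9.00 times the mitotic sum in the average library. The mitotic class holds Kif2b and Kif2c but not Kif2a, which was placed with the other kinesins. The mean of Kif2a, 251 TPM, was above the mitotic sum, so the ratio depends on that placement. Of all motor TPM, transport kinesins made up 58.9% ± 2.32, dynein 1 21.1% ± 1.32, light chains 6.11% ± 1.12, mitotic kinesins 2.80% ± 1.08, ciliary motors 2.36% ± 0.734 and other kinesins 8.70% ± 0.902 (SD, n = 16). In such captured samples, fewer cells of a type and less RNA per cell cannot be told apart.

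**Figure D1:**
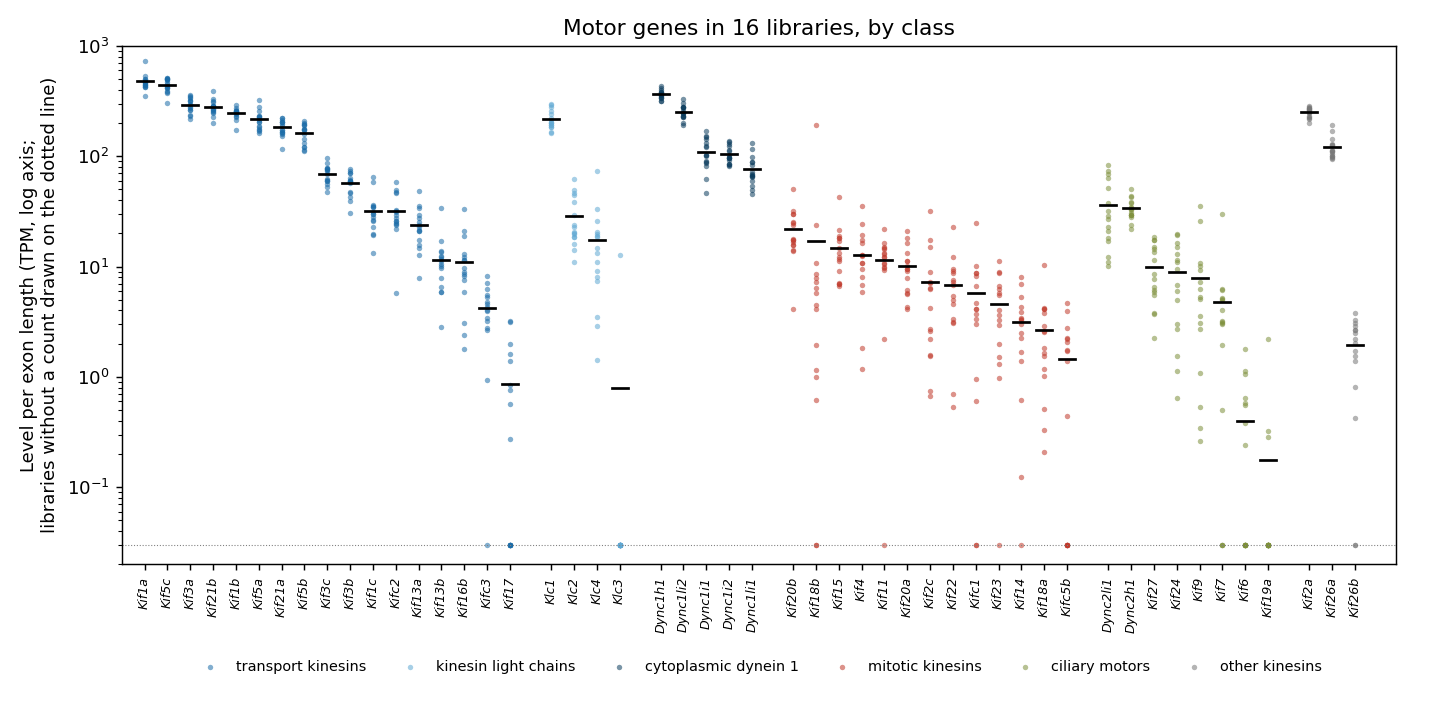
Level of each of the 50 motor genes with a count, in TPM on a log axis, by class. Each dot is 1 of the 16 libraries, the black bar is their mean, and dots on the dotted line are libraries without a count. Transport kinesins and dynein 1 fill the top of the range, from Kif1a at a mean of 476 TPM downward, and the highest mitotic kinesin mean is Kif20b at 21.8 TPM.

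Among transport kinesins, Kif1a, the carrier of synaptic vesicle precursors, had the highest mean level, at 476 ± 80.9 TPM (SD, n = 16), with a lowest, median and highest library of 354, 467 and 737 TPM. Kif5c, a neuronal kinesin-1 heavy chain, followed at 444 ± 60.7 TPM (lowest 303, median 445, highest 509). The difference between these neighbours was smaller than the SD of either. Kif3a, which pairs with Kif3b or Kif3c in heterotrimeric kinesin-2, was at 294 ± 44.6 TPM (lowest 216, median 296, highest 360). Kif21b, a kinesin that restrains microtubule growth, was at 280 ± 45.0 TPM (lowest 199, median 276, highest 394). In TPM all 4 had their lowest level in cypermethrin nonstressed replicate 3, and Kif1a and Kif21b had their highest in vehicle stressed replicate 1. In CPM only Kif5c was lowest in that replicate 3. The lowest CPM of Kif1a was 760 in cypermethrin stressed replicate 3, of Kif3a 169 in vehicle stressed replicate 2, and of Kif21b 538 in vehicle nonstressed replicate 4. Kif1b (246 ± 26.5 TPM), Kif5a (216 ± 44.1), Kif21a (183 ± 29.5) and Kif5b (162 ± 33.8) came next, each within about an SD of its neighbour. Kif3c (69.3 ± 13.2 TPM) and Kif3b (57.1 ± 12.9) were lower, Kif1c, Kifc2, Kif13a, Kif13b, Kif16b and Kifc3 lay between 31.9 and 4.19 TPM, and Kif17, a dendritic kinesin-2, was at 0.859 TPM and was not tested.

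Each family had a leading member. In kinesin-1, Kif5c made up 54.0% ± 4.69 of the family's TPM, Kif5a 26.3% ± 4.46 and Kif5b, the heavy chain found in most tissues, 19.7% ± 3.10 (SD, n = 16). Of the Kif1 genes of kinesin-3, Kif1a made up 62.9% ± 3.56, Kif1b 32.7% ± 3.36 and Kif1c 4.36% ± 2.27. Of the Kif3 genes of kinesin-2, Kif3a made up 69.8% ± 4.60, with Kif3c at 16.6% ± 3.27 and Kif3b at 13.6% ± 2.52. With joined exon lengths, the gaps within each of these families were wider than the SDs, except between Kif3c and Kif3b. The SDs do not cover the choice of length. Kif5a has 6990 bases of joined exons and 6295 in its longest transcript, and Kif5b has 7981 and 6032. Shares by longest transcript were not computed. Kif21b took 60.4% ± 6.26 of its pair with Kif21a, and Kif13a 66.9% ± 11.2 of its pair with Kif13b.

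Kinesin light chains couple kinesin-1 to cargo. Klc1 made up 82.8% ± 5.96 of their TPM (218 ± 43.6 TPM), Klc2 10.7% ± 5.34 (28.5 ± 15.1 TPM) and Klc4 6.24% ± 4.71 (17.6 TPM). Klc3 had all of its 28 counts in vehicle stressed replicate 4.

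All 5 dynein 1 genes had counts in every library. Dync1h1, the heavy chain that holds the motor domain, was at 365 ± 31.6 TPM (SD, n = 16, lowest 318, median 365, highest 430). The light intermediate chain Dync1li2, which links the motor to cargo adaptors, was at 253 ± 36.8 TPM (lowest 191, median 246, highest 331), and its paralogue Dync1li1 at 76.6 ± 24.0 TPM, so that Dync1li2 made up 77.0% ± 4.73 of the pair. The intermediate chains Dync1i1 and Dync1i2 were at 110 ± 34.1 and 104 ± 18.6 TPM and did not differ beyond their spread, with ranges of 46.0 to 169 and 80.8 to 138 TPM (50.3% ± 9.94 and 49.7% of the pair). This rests on joined exons of 3572 and 8280 bases, where the longest transcripts hold 2718 and 4523. In CPM their means were 79.9 and 178.

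All kinesins placed in the mitotic class were low. Kif20b, which works in cytokinesis and is also expressed in neurons, was at 21.8 ± 10.6 TPM (SD, n = 16, lowest 4.14, median 17.6, highest 50.7). Kif15, a spindle motor, was at 14.7 ± 8.83 TPM (lowest 6.70, median 12.7, highest 42.5). Kif4, the chromokinesin, was at 12.8 ± 8.56 TPM (lowest 1.17, median 11.6, highest 35.2). Kif11, the motor that pushes spindle poles apart, was at 11.6 ± 5.13 TPM, with 0 counts in cypermethrin nonstressed replicate 4 and at most 21.7 TPM elsewhere. Kif18b, a motor of spindle microtubule ends, had a mean of 17.2 ± 46.7 TPM because of a single library: vehicle stressed replicate 3 held 191 TPM, and the median was 5.17 TPM. The remaining members with a count (Kif20a, Kif2c, Kif22, Kifc1, Kif23, Kif14, Kif18a and Kifc5b) had means from 10.2 down to 1.45 TPM, and Kif2b had 0 counts. Kifc1 and Kifc5b are close copies, and reads could be split between them.

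Ciliary motors were led by the dynein 2 subunits of retrograde transport within cilia, Dync2li1 at 36.2 ± 24.3 TPM and Dync2h1 at 33.8 ± 7.48 TPM (SD, n = 16). Dync2li1 ran from 10.2 to 83.7 TPM with a median of 28.0, and Dync2h1 only from 22.0 to 50.5 TPM. Kif27, Kif24, Kif9 and Kif7 had means from 9.86 to 4.79 TPM, and Kif6 and Kif19a were at 0.398 and 0.175 TPM and were not tested. Of the remaining kinesins, Kif2a, which takes microtubules apart at their ends and limits axon branching, was at 251 ± 25.1 TPM (lowest 199, median 257, highest 283). Kif26a, a kinesin that lacks ATPase activity, was at 121 ± 27.7 TPM (lowest 93.7, median 112, highest 194), Kif26b at 1.93 TPM, and Kif12 had 0 counts. Annotated exons overlap a gene on the other strand for Kif2a (Dimt1), Kif3c (1110002L01Rik), Kif4 (Pdzd11), Kif7 (Ticrr), Kif18a (Mettl15), Kif20a (Cdc23), Kifc2 (Cyhr1), Klc1 (Xrcc3) and Klc3 (Ercc2), and on the same strand for Kif17 (Sh2d5), Kif1c (Mir6925) and Kif27 (Mir6369). Their counts are uncertain, since the use of strand in counting is not stated.

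The transport sum differed little between groups. It was 3661 ± 191 TPM in vehicle nonstressed, 3702 ± 556 in cypermethrin nonstressed, 3723 ± 249 in vehicle stressed and 3768 ± 82.7 in cypermethrin stressed embryos (SD, n = 4 each). The ranges overlapped between all groups. Within cypermethrin nonstressed embryos, replicate 3 had the lowest transport sum in TPM of all 16 libraries, 3095 TPM, and replicate 4 the highest, 4406 TPM. These extremes depend on the unit. In CPM, replicate 3 held 6274, near the median of 6387, and replicate 4 held 7555. The lowest sum in CPM was 5740 in vehicle nonstressed replicate 4, and the highest 7989 in vehicle stressed replicate 1. In TPM, neuron markers (10 genes) were also lowest in cypermethrin nonstressed replicate 3, at a sum of 5028 TPM, and highest in replicate 4 of that group, at 6940 TPM. All 6 macrophage and all 8 pericyte and meningeal markers had counts in replicate 3, and their sums were the highest there (433 and 2258 TPM). In replicate 4 the macrophage sum was the lowest (31.4 TPM), with C1qa, C1qb and Aif1 at 0, and the pericyte and meningeal sum was 1648 TPM. The macrophage sum ranged from 50.9 to 189 TPM in vehicle nonstressed, 87.7 to 188 in vehicle stressed and 128 to 193 in cypermethrin stressed embryos. The part of these cells in the transport sum was not tested.

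The mitotic sum was 119 ± 21.6 TPM in vehicle nonstressed, 97.2 ± 8.70 in cypermethrin nonstressed, 149 ± 88.1 in vehicle stressed and 115 ± 12.3 in cypermethrin stressed embryos (SD, n = 4 each). Its highest value, 274 TPM in vehicle stressed replicate 3, was mostly Kif18b. Without Kif18b, a choice made after seeing the data, the group means were 107 ± 15.2, 93.7 ± 11.7, 101 ± 31.7 and 110 ± 12.9 TPM. The widest gap between these means was below the SD of the vehicle stressed group but above the SD of each other group. No test was made of these sums. In that library 22 other genes of mitosis summed to 343 TPM, below their mean of 492 ± 110 TPM over the 16 libraries. The high mitotic kinesin sum there was thus a matter of 1 gene.

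**Figure D2:**
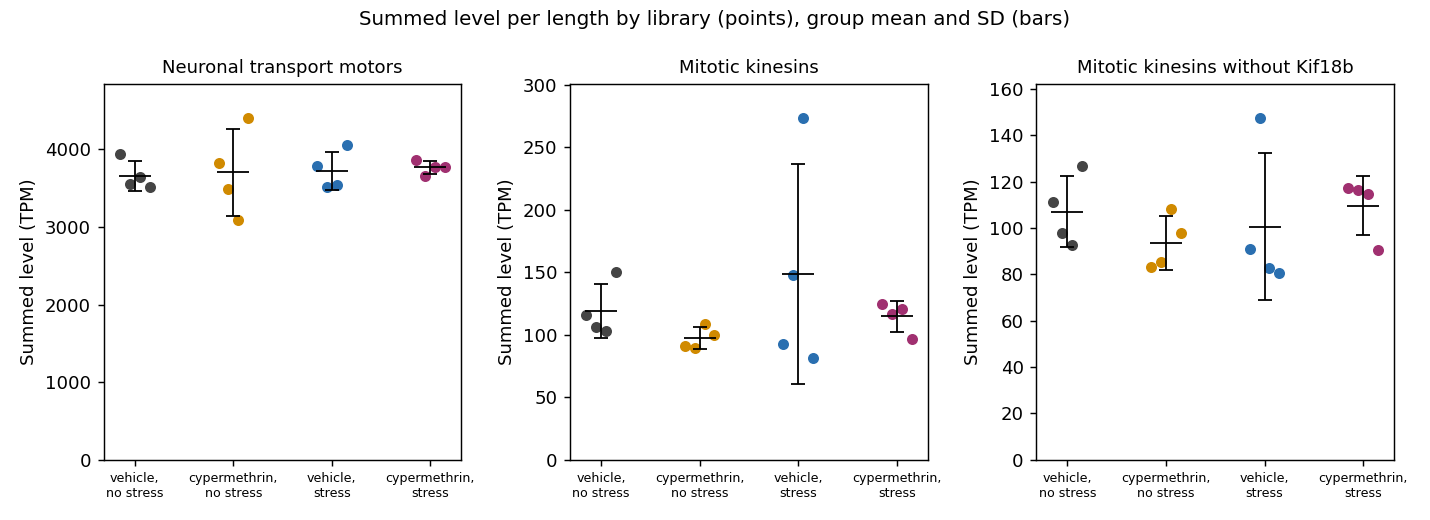
Summed levels in TPM for neuronal transport motors, mitotic kinesins, and mitotic kinesins without Kif18b. Points are the 4 libraries of each group, and bars show mean ± SD. Transport sums lie between 3095 and 4406 TPM in every group, and the mitotic point at 274 TPM in the vehicle stressed group comes down when Kif18b is left out.

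Transport motors were also measured more tightly than mitotic ones. Among transport genes with a mean of 50 CPM or more, the coefficient of variation (CV, SD over mean across all 16 libraries) had a median of 18.5% (16 genes, 9.47% to 32.1%). The 8 tested transport genes below 50 CPM had a median CV of 52.3% (40.9% to 103%). All 12 tested mitotic kinesins lay below 50 CPM, with a median of 70.4% (42.1% to 277%). The low-level transport genes therefore overlapped with the mitotic kinesins in spread. Kif2a (7.88%) and Kif1b (9.47%) varied little, while Kif11 varied by 42.1% where counting error alone would give 12.3%.

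The study's design asks what each exposure, and the pair of them, changed relative to vehicle without stress. All tests below are edgeR's quasi-likelihood test over the 13224 tested genes with Benjamini-Hochberg adjustment, and differences are log2 ± standard error. No motor gene was called at an adjusted p under 0.05 in any of the 6 comparisons, by edgeR, DESeq2 or limma voom, and edgeR called none of the 13224 genes either (background 0% in each comparison). The counts at an unadjusted p under 0.05 are given with each comparison, and single genes named there are leads that failed the adjustment. Shares over all genes are given for edgeR only, so the counts by DESeq2 and limma voom have no matching share beside them.

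For cypermethrin without stress, 3 of 45 motor genes had an unadjusted p under 0.05 by edgeR, 3 by DESeq2 and 3 by limma voom, against 3.71% of all tested genes by edgeR. The smallest adjusted p among motors by edgeR was 0.999. Fitted differences were above 0 for 24 of 45 motors and for 52.4% of all genes. Transport motors had a median log2 difference of 0.08 (18 of 24 above 0) and mitotic kinesins of -0.40 (4 of 12 above 0), with 0.03 over all genes. All 6 tested ciliary motors were below 0, with a median of -0.43.

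Kif21a, at chromosome 15 from 90933276 to 91049948 (GENCODE, mm10), encodes a kinesin that sits at microtubule tips near the cell cortex. It held 285, 155, 207 and 207 CPM in vehicle nonstressed and 261, 235, 340 and 294 CPM in cypermethrin nonstressed embryos. The groups overlapped through vehicle replicate 1, and the log2 difference was 0.40 ± 0.19 (edgeR unadjusted p = 0.0472, adjusted p = 0.999).

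Kif16b, at chromosome 2 from 142617474 to 142901531, encodes a motor that moves early endosomes. It held 3.36, 15.4, 15.3 and 17.2 CPM in vehicle and 20.6, 5.84, 44.2 and 61.0 CPM in cypermethrin nonstressed embryos. In 3 of 4 cypermethrin embryos it was above all vehicle embryos, and in the fourth it was below 3 of them. Its log2 difference came to 1.35 ± 0.65 (edgeR unadjusted p = 0.0472, adjusted p = 0.999), and 0.88 without cypermethrin replicate 4.

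Kif9, at chromosome 9 from 110476958 to 110525179, encodes a motor of motile cilia and flagella and had few counts in most libraries. Its values were 23.2, 2.40, 3.02 and 2.57 CPM in vehicle nonstressed and 4.27, 0.307, 0.265 and 0.466 CPM in cypermethrin nonstressed embryos. In both groups replicate 1 stood above the rest, and the groups overlapped through the cypermethrin replicate 1. The log2 difference was -2.46 ± 1.08 (edgeR unadjusted p = 0.0312, adjusted p = 0.999). It was -0.94 without vehicle replicate 1 and -4.38 without cypermethrin replicate 1.

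For stress without cypermethrin, 1 of 45 motor genes had an unadjusted p under 0.05 by each of edgeR, DESeq2 and limma voom, against 5.08% of all tested genes by edgeR. The smallest adjusted p among motors by edgeR was 0.965. Fitted differences were above 0 for 28 of 45 motors and for 50.8% of all genes, with medians of 0.03 for transport (14 of 24 above 0), 0.51 for mitotic kinesins (9 of 12 above 0) and 0.01 over all genes.

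Klc2, the light chain gene at chromosome 19 from 5107746 to 5118560 on the minus strand (GENCODE, mm10), was the motor with the smallest p. It held 12.1, 15.7, 15.1 and 12.8 CPM in vehicle nonstressed embryos, a mean of 13.9 ± 1.75 (SD, n = 4). Vehicle stressed embryos held 36.5, 16.2, 55.4 and 37.8 CPM, a mean of 36.5 ± 16.0. The groups did not overlap, although the lowest stressed embryo was close to the highest nonstressed one. The log2 difference was 1.39 ± 0.50 (95% interval 0.37 to 2.40, edgeR unadjusted p = 0.00943, adjusted p = 0.965). It ranged from 1.11 to 1.63 when single libraries were left out, and was 0.92 and 1.74 within the libraries that bear the first and the second of the codes in the descriptions.

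Kif1a held 902, 822, 890 and 780 CPM in vehicle nonstressed and 1585, 822, 932 and 919 CPM in vehicle stressed embryos. Only vehicle stressed replicate 1, the library whose sex-linked genes go against its label, was far above the others. The log2 difference of 0.33 ± 0.17 (edgeR unadjusted p = 0.0669, adjusted p = 0.965) was 0.07 without it. Kif20b held 73.2, 34.3, 21.6 and 33.1 CPM in vehicle nonstressed and 6.64, 24.0, 37.3 and 23.7 CPM in vehicle stressed embryos. These groups overlapped, and the log2 difference of -0.81 ± 0.50 (edgeR unadjusted p = 0.118, adjusted p = 0.966) was -0.51 without vehicle stressed replicate 1, -0.36 without vehicle nonstressed replicate 1, and 0.16 within the libraries of the second code.

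For both exposures against vehicle nonstressed embryos, 1 of 45 motors had an unadjusted p under 0.05 by edgeR, 1 by DESeq2 and 0 by limma voom, against 1.49% of all tested genes by edgeR. The smallest adjusted p among motors by edgeR was 1, and 31 of 45 motors were fitted above 0, against 50.3% of all genes. Medians were 0.11 for transport (19 of 24 above 0), 0.18 for mitotic kinesins (7 of 12) and 0.00 over all genes. The comparisons with a single group share the vehicle nonstressed embryos, so a low value there moves all of them.

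Klc2 held 40.9, 42.8, 17.8 and 16.6 CPM in cypermethrin stressed embryos, a mean of 29.5 ± 14.2 (SD, n = 4), each above the 4 vehicle nonstressed values. The log2 difference was 1.08 ± 0.49 (edgeR unadjusted p = 0.0369, adjusted p = 1), with 0.84 to 1.28 when single libraries were left out. Within the library codes it was 1.59 and 0.30.

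Kif13a, which carries endosomes and receptors to the membrane, held 26.5, 13.0, 34.2 and 37.5 CPM in vehicle nonstressed and 38.0, 81.4, 35.2 and 40.0 CPM in cypermethrin stressed embryos. The groups overlapped, and the log2 difference of 0.81 ± 0.44 (edgeR unadjusted p = 0.0765, adjusted p = 1) was 0.44 without cypermethrin stressed replicate 2. Dync1li1 held 39.9, 47.9, 50.6 and 49.8 CPM in vehicle nonstressed and 101, 71.7, 62.1 and 51.4 CPM in cypermethrin stressed embryos. Here the groups did not overlap, but the closest values lay 51.4 against 50.6 CPM, and the log2 difference of 0.60 ± 0.34 (edgeR unadjusted p = 0.0837, adjusted p = 1) was 0.39 without cypermethrin stressed replicate 1.

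The interaction asks whether cypermethrin acted differently in stressed and nonstressed embryos. By edgeR 1 of 45 motors had an unadjusted p under 0.05, by DESeq2 2 and by limma voom 1, against 4.7% of all tested genes by edgeR, and the smallest adjusted p among motors was 0.985. Fitted values were above 0 for 19 of 45 motors and 47.4% of all genes. The medians were -0.11 for transport, 0.14 for mitotic kinesins and -0.04 over all genes.

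Kif9 had the smallest p. It held 9.96, 0.937, 5.68 and 4.46 CPM in vehicle stressed and 33.4, 6.44, 7.70 and 9.19 CPM in cypermethrin stressed embryos, beside the nonstressed values given above. All cypermethrin stressed embryos were above all cypermethrin nonstressed ones. The interaction was 3.90 ± 1.49 on the log2 scale (edgeR unadjusted p = 0.0143, adjusted p = 0.985), 2.37 without vehicle nonstressed replicate 1, and 3.45 and 3.66 within the library codes. In each of the 4 groups the highest Kif9 value was in the library numbered 1.

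Klc4 held 12.8, 16.5, 3.77 and 8.47 CPM in vehicle nonstressed and 9.30, 7.38, 0.795 and 1.40 CPM in cypermethrin nonstressed embryos. In stressed embryos it held 1.90, 9.68, 4.62 and 5.17 CPM with vehicle and 38.3, 3.68, 8.58 and 6.21 CPM with cypermethrin. The groups overlapped and the interaction of 2.51 ± 1.27 (edgeR unadjusted p = 0.0578, adjusted p = 0.985) was 1.32 without cypermethrin stressed replicate 1. Kifc1, a spindle motor that moves toward microtubule minus ends, had 18.7 CPM in that same library and 6.60 CPM or less in the other 15, with an interaction of 2.67 ± 1.67 (edgeR unadjusted p = 0.121, adjusted p = 0.985).

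Averaging over the other exposure sets 8 embryos against 8. For cypermethrin averaged over stress, 3 of 45 motors had an unadjusted p under 0.05 by edgeR, 3 by DESeq2 and 2 by limma voom, against 4.59% of all tested genes by edgeR, and the smallest adjusted p among motors was 0.981. Above 0 were 26 of 45 motors and 51.1% of all genes, with medians of 0.08 for transport (18 of 24), -0.10 for mitotic kinesins (5 of 12) and 0.01 over all genes. Ciliary motors had a median of -0.50 (1 of 6 above 0). Among them Dync2li1, chosen after its values were seen, had a log2 difference of -0.96 (95% interval -1.94 to 0.02), and Dync2h1, the heavy chain of the same motor, had 0.09 (-0.28 to 0.47). Dync2li1 held 4.70, 26.9, 10.6 and 11.5 CPM in vehicle nonstressed, 18.9, 4.00, 4.77 and 7.91 in cypermethrin nonstressed, 27.5, 31.2, 29.1 and 8.46 in vehicle stressed and 11.2, 7.13, 13.4 and 6.21 in cypermethrin stressed embryos, and the groups overlapped except in that 3 of the 4 vehicle stressed embryos were the highest of the 16.

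Kif18b lies at chromosome 11 from 102905529 to 102925124. It held 3.36, 6.39, 7.55 and 16.4 CPM in vehicle nonstressed and 0.948, 0, 146 and 0.705 CPM in vehicle stressed embryos. With cypermethrin it held 5.53, 3.07, 0 and 1.40 CPM in nonstressed and 5.76, 0.460, 3.96 and 4.47 CPM in stressed embryos. Vehicle and cypermethrin values both reached down to 0 CPM, and 4 of 8 vehicle values (6.39, 7.55, 16.4 and 146 CPM) were above all cypermethrin values. On average cypermethrin embryos differed by -2.52 ± 1.01 on the log2 scale (edgeR unadjusted p = 0.0209, adjusted p = 0.981), and it turned to 0.48 without vehicle stressed replicate 3. Within the library codes it was 1.45 and -3.55.

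Kif16b held 18.5, 23.4, 4.62 and 10.6 CPM in vehicle stressed and 24.5, 35.4, 13.0 and 20.4 CPM in cypermethrin stressed embryos, which overlapped. With the nonstressed values above, the averaged log2 difference was 1.03 ± 0.46 (edgeR unadjusted p = 0.0324, adjusted p = 0.981), and it was 0.82 and 1.15 within the library codes. Kifc2, a neuronal motor that moves toward microtubule minus ends, held 47.3, 37.5, 24.4 and 24.9 CPM in vehicle nonstressed and 25.1, 19.0, 41.5 and 36.4 CPM in vehicle stressed embryos. With cypermethrin it held 18.4, 24.3, 5.30 and 25.1 CPM in nonstressed and 19.0, 20.5, 19.6 and 19.9 CPM in stressed embryos. All but 1 of the cypermethrin values were at or below 24.3 CPM, while 7 of the 8 vehicle values were above it. This gave a log2 difference of -0.75 ± 0.34 (edgeR unadjusted p = 0.0361, adjusted p = 0.981), with -0.68 and -0.71 within the library codes.

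For stress averaged over cypermethrin, 1 of 45 motors had an unadjusted p under 0.05 by edgeR, 2 by DESeq2 and 3 by limma voom, against 5.13% of all tested genes by edgeR, and the smallest adjusted p among motors was 0.960. Above 0 were 29 of 45 motors and 50% of all genes, with medians of 0.03 for transport (13 of 24), 0.32 for mitotic kinesins (8 of 12) and -0.00 over all genes.

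Klc2 again had the smallest p. Averaged over cypermethrin its log2 difference was 1.05 ± 0.35 (95% interval 0.33 to 1.76, edgeR unadjusted p = 0.00560, adjusted p = 0.960). The 8 nonstressed embryos held 10.6 to 24.7 CPM and the 8 stressed ones 16.2 to 55.4 CPM, so the values overlapped. Without single libraries the difference was 0.91 to 1.17, and within the library codes 1.00 and 0.86. As a share of light chain TPM, Klc2 made up 6.70% ± 1.80 in vehicle nonstressed, 8.43% ± 1.41 in cypermethrin nonstressed, 15.8% ± 6.82 in vehicle stressed and 12.0% ± 5.07 in cypermethrin stressed embryos (SD, n = 4 each).

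Kif5a, the neuronal kinesin-1 heavy chain, held 408, 374, 310 and 238 CPM in vehicle nonstressed and 283, 278, 375 and 458 CPM in cypermethrin nonstressed embryos. Under stress it held 277, 296, 240 and 320 CPM with vehicle and 285, 245, 273 and 312 CPM with cypermethrin. The groups overlapped, and the log2 difference of -0.28 ± 0.14 (edgeR unadjusted p = 0.0564, adjusted p = 0.960) did not pass the test. Kif9 had a difference of 1.38 ± 0.73 (edgeR unadjusted p = 0.0703, adjusted p = 0.960), which was 2.15 without vehicle nonstressed replicate 1. With single libraries left out it ranged from 0.95 without cypermethrin stressed replicate 1 to 2.35 without cypermethrin nonstressed replicate 1.

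**Figure D3:**
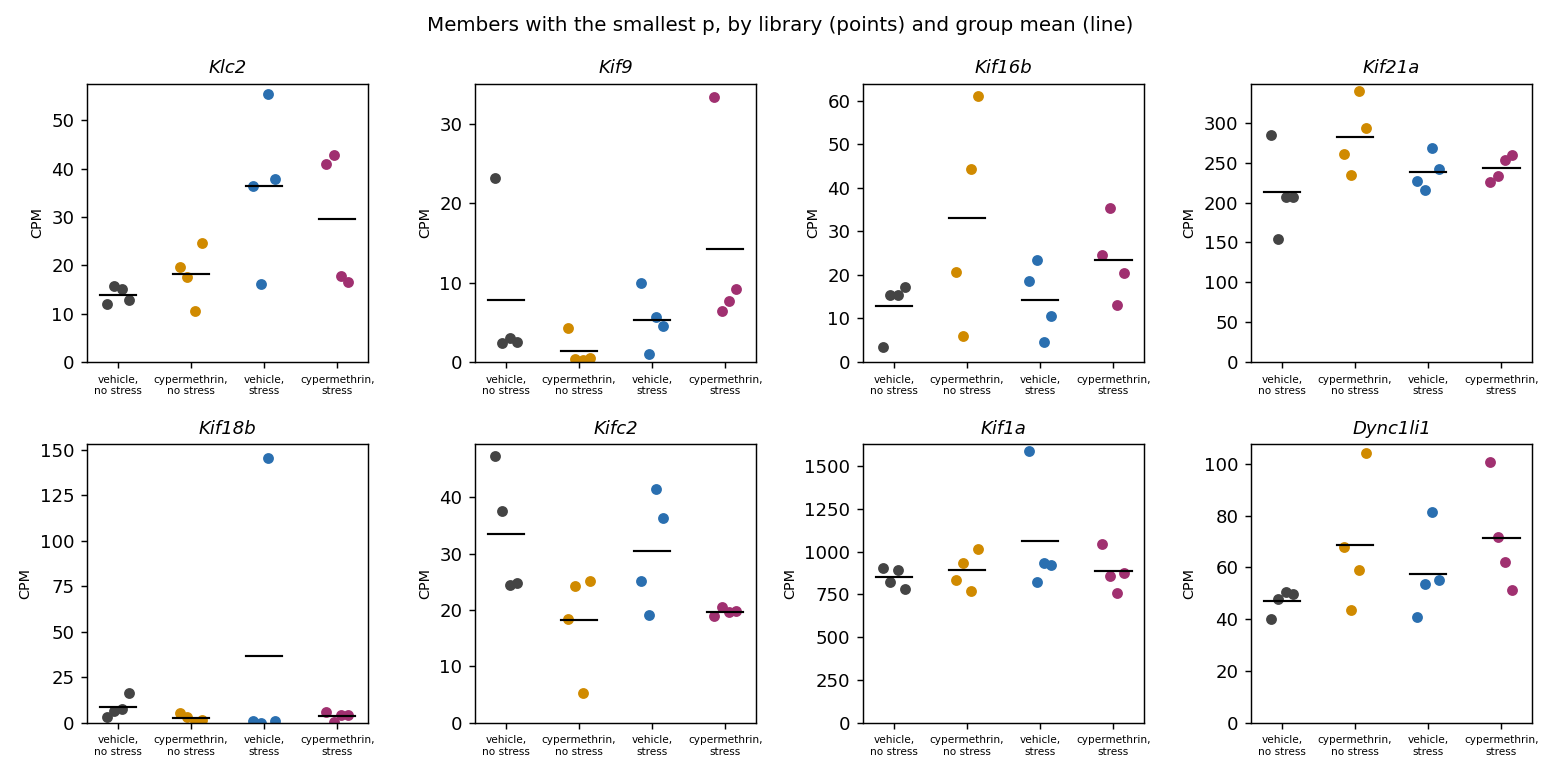
CPM of 8 motor genes in each library by group. Dots are libraries and the line is the mean of 4. Klc2 is at 12.1 to 15.7 CPM in vehicle nonstressed embryos and at 16.2 CPM or more in both stressed groups. In cypermethrin nonstressed embryos it is at 10.6 to 24.7 CPM, which overlaps both stressed groups. Kif18b and Kif1a each have 1 library far above the rest.

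For the abundant transport motors the intervals were narrow enough to bound a change. The 95% interval of the log2 difference stayed within a 2-fold change in either direction for 17 of 24 transport motors with cypermethrin averaged over stress and for 19 of 24 with stress averaged over cypermethrin. The shares over all genes were 45.6% and 45.7%. For mitotic kinesins it did so for 1 of 12 in each, so a change of 2-fold or more was not excluded for the other 11. Without averaging, 14, 16 and 15 of 24 transport motors and 0 of 12 mitotic kinesins stayed within it for cypermethrin, stress and both, where the shares over all genes were 26.6%, 26.1% and 28.5%.

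Kif5c held 619, 562, 709 and 592 CPM in vehicle nonstressed, 719, 707, 506 and 736 in cypermethrin nonstressed, 833, 619, 600 and 691 in vehicle stressed and 591, 625, 682 and 641 in cypermethrin stressed embryos. Its log2 difference was -0.00 (95% interval -0.23 to 0.22) for cypermethrin and 0.04 (-0.19 to 0.26) for stress, each averaged over the other. Kif1b had 0.00 (-0.20 to 0.21) and -0.03 (-0.23 to 0.18), and Dync1h1 had -0.05 (-0.26 to 0.16) and 0.07 (-0.15 to 0.28). Each of these intervals, for heavy chains of outward and inward transport, lay well within a 2-fold change. By contrast the Kif11 interval ran from -1.23 to 0.84 for cypermethrin and from -1.11 to 0.96 for stress.

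**Figure D4:**
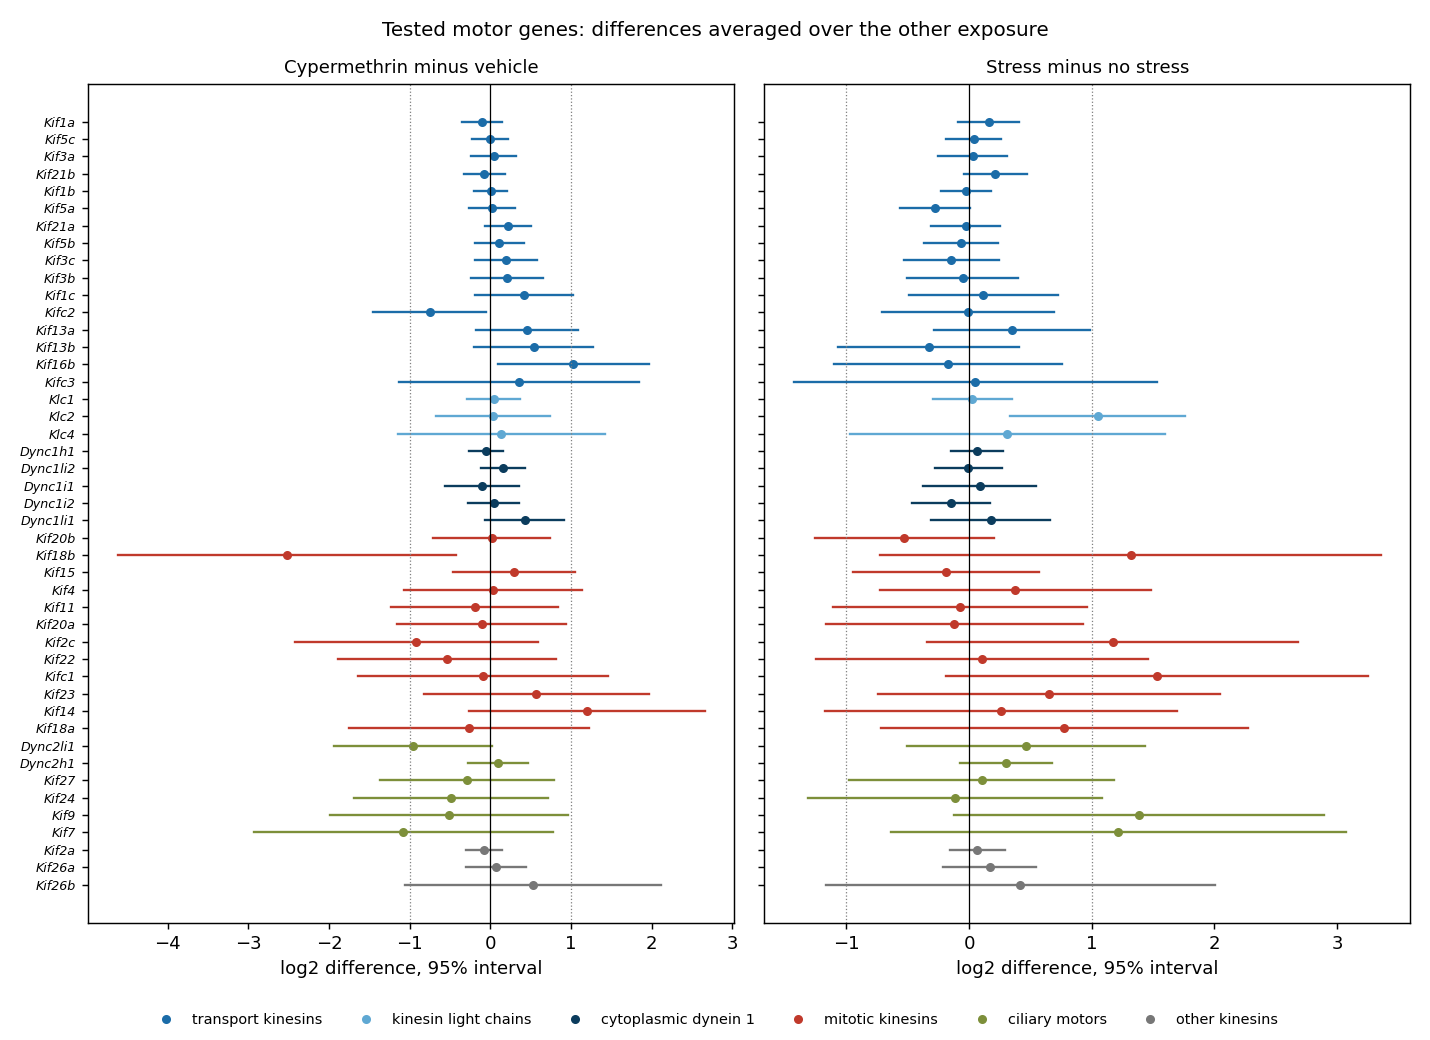
Log2 difference with its 95% interval for each of the 45 tested motor genes, for cypermethrin averaged over stress and stress averaged over cypermethrin, by class. Dotted lines mark a 2-fold change (log2 of 1 in either direction). Intervals of abundant transport motors lie inside the lines, and those of nearly all mitotic kinesins cross them.

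Set side by side, the median difference of transport motors minus that of mitotic kinesins was 0.48 on the log2 scale for cypermethrin alone, -0.48 for stress alone, -0.07 for both, -0.25 for the interaction, and 0.18 and -0.29 for the averaged exposures. No test was made of these values. The stress value became 0.11 without vehicle stressed replicate 2 and turned to 0.48 within the libraries of the second code, and the cypermethrin value became 0.09 within those of the first. Computed library by library from log2(CPM + 0.5) centred per gene, transport minus mitotic had group means of -0.28 ± 0.39 in vehicle nonstressed, 0.06 ± 0.14 in cypermethrin nonstressed, -0.09 ± 0.50 in vehicle stressed and -0.26 ± 0.24 in cypermethrin stressed embryos (SD, n = 4 each). By these means the difference was 0.19 for stress alone, opposite in sign to the fitted value, and 0.34 for cypermethrin alone.

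The partners of the motors gave no calls either. Of 42 listed adaptors and regulators (dynactin subunits, dynein light chains, cargo adaptors such as Trak and Bicd proteins, and kinesin-binding proteins), 38 were tested and edgeR called 0 in each comparison, with 2, 1, 2, 2, 1 and 1 at an unadjusted p under 0.05 in the order above. Dynlt1b, a dynein light chain with close copies between which reads could be split, held 22.8, 39.1, 18.6 and 38.0 CPM in vehicle nonstressed and 33.7, 37.5, 23.1 and 25.6 CPM in vehicle stressed embryos. With cypermethrin it held 16.3, 23.4, 13.0 and 3.72 CPM in nonstressed and 0.288, 2.30, 13.6 and 16.1 CPM in stressed embryos. Apart from the value of 23.4 CPM, all cypermethrin embryos were below all vehicle embryos, and the averaged log2 difference was -1.47 ± 0.50 (edgeR unadjusted p = 0.00636, adjusted p = 0.981). Fez1, an adaptor of kinesin-1, and Trak1, which links mitochondria to motors, followed with -0.40 ± 0.21 and -0.29 ± 0.17, and became -0.24 without vehicle stressed replicate 1 and -0.15 without vehicle nonstressed replicate 1. For stress averaged over cypermethrin, the dynactin subunit Dctn2 had -0.53 ± 0.21 (edgeR unadjusted p = 0.0164, adjusted p = 0.960), the light chain Dynll1 had -0.23 ± 0.13, and the dynactin subunit Dctn4 had 0.31 ± 0.18, which became 0.12 without vehicle stressed replicate 1. Of 22 listed mitosis genes that are not kinesins, edgeR called 0 in each comparison, and 1, 0, 0, 1, 3 and 0 had an unadjusted p under 0.05. Over all tested genes the shares in the same order were 3.71%, 5.08%, 1.49%, 4.7%, 4.59% and 5.13%.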

How the data were processed

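Gene counts came from 16 libraries of laser-captured GFP-positive cells, made with a Nugen Trio RNA-seq kit per the labels' protocols. The deposited file is a single table of gene symbols against libraries that holds whole-number, unnormalized counts. Reads were aligned with STAR 2.5 to build mm10, per the submitters' processing notes. Which program counted the reads, on which annotation and with which strand setting is not given in the sources used here.

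Groups follow the exposures in the labels, and replicate numbers were given in accession order. The motor genes, their classes, the other gene lists and the promoter motifs were chosen with earlier results of these data known. CPM use library sizes scaled by TMM. TPM were computed here from the counts and the joined exon length in GENCODE vM21, over 23835 symbols with a single entry, and all 52 motor genes had one. Genes kept by filterByExpr (count minimum 10, by group), 13224 in all, were tested with edgeR 4.0.16 (R 4.3.3) by the quasi-likelihood test with robust dispersions and 1 mean per group over all 16 libraries, with Benjamini-Hochberg adjustment over all tested genes and calls at an adjusted p under 0.05. The biological coefficient of variation was 0.586, with 12 residual degrees of freedom. Cypermethrin, stress and the pair were each set against vehicle nonstressed, and the interaction and the 2 averaged effects were tested too. Each standard error is the log2 difference over the root of its F statistic. The fits were also run on simulated data, and no result above rests on that run.

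Alternatives were DESeq2 1.42.0, limma 3.58.1 voom, RLE factors, no filter, the library code as a term or each code alone, only the groups compared, and leaving out each library. Genes given in every library are the 4 highest per class by TPM (by mean and SD over the 16 libraries, or range) and the 3 with the smallest unadjusted p per comparison, for adaptors the 3 with the smallest p per averaged comparison. Promoters come from RefSeq (GRCm38.p6, which shares its chromosome coordinates with mm10). Precision is limited by the number of embryos and the spread between them.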

Additional observations from a re-analysis of the deposited data

Results flagged for a closer look

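For the 31 motor genes given in every library or with the smallest p, and for the summed transport and mitotic levels, the highest or lowest value in each group of 4 libraries was compared with the other 3, and it was set apart when its gap to the nearest, as a share of the group's range, exceeded Dixon's 95% critical value for 4 values. This held in 17 of the 129 groups in which values varied. Chance gives about 1 in 20 groups where values are normally distributed and genes are not picked by their values, and neither holds here. By the same measure, chosen after the values were seen, other motor genes that stood apart were Kif3c at 158 CPM in cypermethrin stressed replicate 1 (others 85.8 to 90.7), Kif2c at 32.2 CPM in vehicle stressed replicate 1 (others 1.88 to 5.62) and Kif1c at 111 CPM in cypermethrin nonstressed replicate 3 (others 30.1 to 43.8), beside Kif17, Kif19a and Kifc5b, where the library that stood apart was the only 1 of its group with a count.

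Several stood apart by a wide margin. Kif18b was at 146 CPM in vehicle stressed replicate 3 and at 0 to 0.948 CPM in the others of that group. Kif9 was at 23.2 CPM in vehicle nonstressed replicate 1 (others 2.40 to 3.02), at 4.27 CPM in cypermethrin nonstressed replicate 1 (others 0.265 to 0.466) and at 33.4 CPM in cypermethrin stressed replicate 1 (others 6.44 to 9.19). Klc3 was at 6.58 CPM in vehicle stressed replicate 4 and at 0 in the others. Klc4 was at 38.3 CPM in cypermethrin stressed replicate 1 (others 3.68 to 8.58).

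Among abundant transport motors, Kif1a was at 1585 CPM (others 822 to 932) and Kif21b at 1106 CPM (others 651 to 698) in vehicle stressed replicate 1, the library whose sex-linked genes go against its label. In cypermethrin nonstressed replicate 3, where markers of macrophages and pericytes were highest, Kif5c was low at 506 CPM (others 707 to 736) and Kif26a was high at 274 CPM (others 141 to 154). Kif26a was higher still, at 309 CPM, in vehicle stressed replicate 1, where the pericyte and meningeal sum was the lowest of all libraries (489 TPM). The part of those cells in these values was not tested. Klc1 was at 238 CPM in vehicle stressed replicate 4 (others 156 to 166) and at 255 CPM in cypermethrin stressed replicate 1 (others 158 to 171).

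In cypermethrin stressed replicate 2, Dync1i1 was at 106 CPM (others 80.6 to 85.0), Kif13a at 81.4 CPM (others 35.2 to 40.0) and Kif20b at 46.2 CPM (others 21.4 to 23.8). Dync2li1 was low at 8.46 CPM in vehicle stressed replicate 4 (others 27.5 to 31.2), and Kif16b was low at 3.36 CPM in vehicle nonstressed replicate 1 (others 15.3 to 17.2).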

How the results depend on the processing

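The count of motor genes called was 0 in all 6 comparisons under every alternative run, with 0.434 as the lowest adjusted p of a motor (DESeq2, stress alone). The fitted median difference of transport minus mitotic motors moved by more than 0.345 in some settings, and the cause was not tested. This bound is the pooled SD within groups of the value computed library by library. It is therefore a yardstick from another measure, used alike for all 6 comparisons, and not the error of the fitted difference. For the interaction (-0.25) it was -0.82 with limma voom, -0.66 with no filter, 0.26 within the first library code and -1.31 within the second. Within the first code it was 0.093 for cypermethrin alone (0.48 in all libraries) and -0.75 for stress averaged over cypermethrin (-0.29). These first-code values, and the 0.26 for the interaction, rest on a single cypermethrin nonstressed library. Within the second code the median difference was 0.48 for stress alone (-0.48) and 0.30 for both exposures (-0.07). Leaving out single libraries gave -0.68 to 0.11 for stress alone and -0.65 to 0.14 for the interaction, with 0.11 and -0.65 without vehicle stressed replicate 2 and 0.14 without vehicle nonstressed replicate 4. The ranges were 0.36 to 0.67 for cypermethrin alone, -0.11 to 0.19 for both exposures, 0.06 to 0.27 for cypermethrin averaged and -0.41 to 0.05 for stress averaged. Single genes changed sign in 4 settings: Kif18b for cypermethrin averaged over stress (1.45 within the first code, 0.48 without vehicle stressed replicate 3, with -2.90 to 0.48 over all single libraries left out), Kif20b for stress alone (0.16 within the second code) and Dctn4 for stress averaged over cypermethrin (-0.079 within the second code). The transport sum was 3424 to 3712 TPM under other settings and 3667 to 3754 TPM with single libraries left out (3713 in all), and the mitotic sum 103 to 128 TPM and 110 to 123 TPM (120 in all), the 103 being without Kif18b. No paired analysis was possible because the labels number no replicates, and the numbers used only name the libraries. For most mitotic kinesins the interval did not bound a 2-fold change.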
